A study of Mus musculus with 20 samples.

Results

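The MHC class II presentation genes are followed here across lymph nodes of mice that lack mature T and B cells. The set is defined by name: the 10 rows of the deposited gene table whose symbol is H2-Aa, H2-Ab1, H2-Eb1, H2-DMa, H2-DMb1, H2-DMb2, H2-Oa, H2-Ob, Cd74 or Ciita, out of 56258 genes in all. All 10 were found and all 10 passed the filter on low counts. RNA came from whole lymph nodes of mice aged 9 weeks that are homozygous for a Rag1 null allele (Rag1-/-, B6.129S7-Rag1tm1Mom/J), which blocks rearrangement of their receptor genes. The positions are the duodenal, jejunal, ileal and ceco-colonic nodes, all of which drain gut, and the skin-draining inguinal node, the reference from outside the gut. Each position gave 4 libraries of polyadenylated RNA, 20 in all. Every library, inguinal ones included, carries the Rag1 allele and there is no wild-type group, so nothing here compares mutant with normal nodes. Whether libraries with different numbers are different animals is not stated in the labels, so p-values measure the spread between these libraries only.

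Class II molecules display peptides from endosomes to CD4 T cells. H2-Aa and H2-Ab1 encode the alpha and beta chains of the I-A molecule and H2-Eb1 the beta chain of I-E, while Cd74 encodes the invariant chain, which occupies the groove and guides the complex to endosomes. There H2-DM (H2-DMa with H2-DMb1 or H2-DMb2) exchanges the invariant chain remnant for peptide, and H2-DO (H2-Oa with H2-Ob) binds H2-DM and restrains it. Ciita encodes a transactivator of class II genes. In a normal node most class II comes from B cells and dendritic cells, with macrophages and some stromal cells adding to it.

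Of the 10 genes, 8 lie in the MHC on chromosome 17 and were listed in the GENCODE M21 annotation (GRCm38) between chr17:34092340-34095234 (H2-Oa, plus strand) and chr17:34305867-34316674 (H2-Eb1, plus strand). Ciita lies at chr16:10480059-10528418 on the plus strand. The RefSeq promoter table (GRCm38.p6, 250 bases before to 50 after each annotated start) holds 8 promoters for 7 of the genes and lists none for H2-Ab1, Cd74 or Ciita. The class II promoter is known for an X box, bound by the RFX complex, and a Y box, bound by NF-Y, which together hold the platform on which Ciita acts. The Y box core TGATTGG was present in the window of 6 of these 7 genes, always on the gene's strand, against 7.82% of all 32851 promoters of the table when both strands are searched. The fuller module AAC, 20 to 30 bases of any kind and then TGATTGG, was present in the same 6 genes and in 1.05% of all promoters. These letters were chosen after the sequences were seen, and a match describes the sequence and is no measured binding. H2-DMa has 2 promoter entries and neither holds the motif in its window. The windows are shown because the genes that moved apart in the nodes, such as H2-DMb1 and H2-DMb2, share this layout. AAC and TGATTGG are in capitals.
H2-Aa, chr17:34287859-34287918, minus strand: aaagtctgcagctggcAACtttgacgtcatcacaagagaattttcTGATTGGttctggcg
H2-Eb1, chr17:34305761-34305820, plus strand: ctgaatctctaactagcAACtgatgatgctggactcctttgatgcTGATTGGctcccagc
H2-DMb2, chr17:34145112-34145171, plus strand: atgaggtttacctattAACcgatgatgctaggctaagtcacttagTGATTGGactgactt
H2-DMb1, chr17:34153085-34153114, plus strand, around AAC only: gaggtttacctagtAACtgatgatgctagg
H2-Oa, chr17:34092289-34092348, plus strand: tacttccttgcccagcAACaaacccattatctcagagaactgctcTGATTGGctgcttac
H2-Ob, chr17:34238801-34238860, plus strand: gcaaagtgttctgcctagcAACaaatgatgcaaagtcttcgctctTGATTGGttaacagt

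H2-DMb1 and H2-DMb2 are tandem copies, and how far reads tell them apart bears on what follows. Their coding sequences, 786 bases each in the GENCODE M21 models H2-DMb1-201 and H2-DMb2-201, are 95.9% identical. Of the 31-base windows of the H2-DMb2 transcript 45.7% also occur in a transcript of another gene, and of the H2-DMb1 transcript 37.6%. The remaining windows are unique to each copy, but the split of shared reads is an estimate. The stretch of 60 coding bases with the most differences (17) runs from base 208 to 267 and is shown with the differing bases in capitals.
H2-DMb1: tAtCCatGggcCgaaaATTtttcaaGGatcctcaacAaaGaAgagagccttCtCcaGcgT
H2-DMb2: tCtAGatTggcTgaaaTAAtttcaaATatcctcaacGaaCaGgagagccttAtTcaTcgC
Among the other members, H2-Oa shared 24.9% of its windows with BC051537, another annotated gene, and every other member shared at most 2.01%.

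Total estimated counts per library were 148.2 to 304.6 M (M stands for mega, as in counts per M, CPM), and no gene of the set was near the detection limit. Rag1 transcripts stood at 1.98 to 3.43 CPM (scaled by the TMM method) in all 20 libraries. With no wild-type library this checks no label. The lymph node was recognisable by its defining genes in every position: the chemokine Ccl21a averaged 2421 ± 760.0 CPM over gut-draining and 1203 ± 301 CPM over inguinal libraries, and the vessel mucin Glycam1 240.0 ± 123 CPM and 614 ± 71.6 CPM (SD, n = 16 and 4). The B cell receptor chain Cd79a stood at 0.576 ± 0.0844 CPM in gut-draining and 0.611 ± 0.107 CPM in inguinal nodes. Duodenal libraries 1 and 2 and jejunal library 1 held transcripts of pancreatic acinar cells. The 8 acinar markers summed to 9.71 to 29811 CPM in duodenal and 5.73 to 77.5 CPM in jejunal libraries, and to 6.14 to 8.33 CPM over the ileal, ceco-colonic and inguinal ones. Where leaving these 3 libraries out adds or ends a call of a member, that is said beside it.

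Cd79a stood at no more than 0.745 CPM in any library, and the 7 B cell markers counted summed to at most 19.5 CPM. Class II was among the most abundant messages of these nodes. On a per-length scale (TPM, transcripts per M), Cd74 averaged 7739 TPM over the 20 libraries and ranked 5 of 56691 genes. H2-Aa followed at 3611 TPM (rank 19), H2-Eb1 at 3298 TPM (rank 24) and H2-Ab1 at 3086 TPM (rank 31). The accessory genes were far lower: H2-DMa averaged 261 TPM, H2-DMb1 202 TPM, H2-DMb2 80.8 TPM, H2-Oa 62.9 TPM and H2-Ob 37.0 TPM. Ciita, the regulator, stood at 67.6 TPM. The set together took 1.38% of all TPM in duodenal library 2, the lowest, and 2.09% in ileal library 1, the highest.

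**Figure D1:**
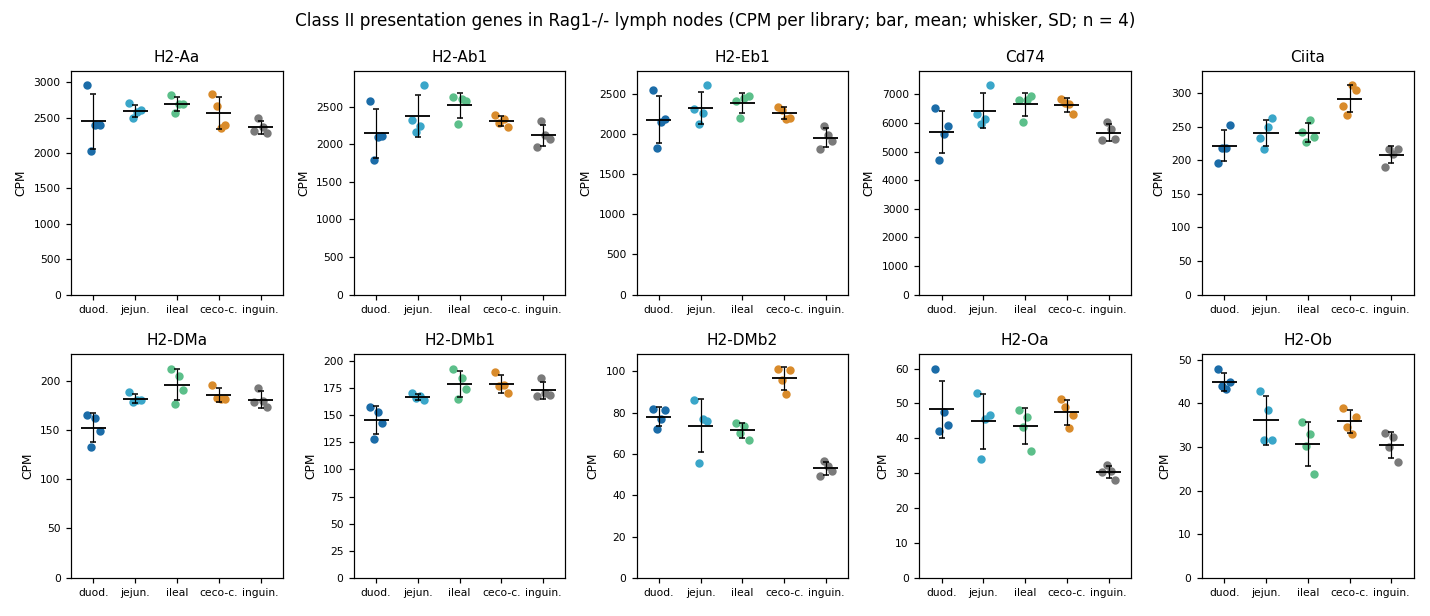
CPM of the 10 genes in each of the 20 libraries (points), with mean (bar) and SD (whisker, n = 4) for duodenal, jejunal, ileal, ceco-colonic and inguinal nodes. The I-A and I-E chains and Cd74 are close to level, whereas the 4 ceco-colonic libraries lie highest for H2-DMb2 (89.2 to 101 CPM) and Ciita (268 to 311 CPM), the duodenal ones lowest for H2-DMa (133 to 165 CPM) and highest for H2-Ob (43.2 to 47.9 CPM), and all 4 inguinal ones lowest for H2-Oa (28.0 to 32.4 CPM).

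In gut-draining against inguinal nodes (the mean of the 4 gut positions over inguinal), 5 of the 10 genes rose and 0 fell at an adjusted p under 0.05, by the quasi-likelihood test of edgeR, with p-values adjusted by the Benjamini-Hochberg method over all 29411 genes tested. Without inguinal library 4 the count was 3. In this comparison 26.3% of all genes were called, made up of 13.4% higher and 12.9% lower. The members that rose were H2-DMb2, H2-Oa, Ciita, H2-Eb1 and H2-Ob, that is, both H2-DO chains, the regulator, a DM beta chain and the I-E beta chain. The median log2 fold change of the members was 0.19, beside 0.00 over all genes. These tests rest on TMM-scaled values. In TPM, without that scaling, gut-draining and inguinal means were 3611 and 3609 for H2-Aa and 3095 and 3051 for H2-Ab1. They were 3345 and 3111 for H2-Eb1, 7787 and 7548 for Cd74 and 68.9 and 62.4 for Ciita. For H2-DMb2 they were 85.6 and 61.6, for H2-Oa 66.7 and 47.9 and for H2-Ob 37.7 and 33.9. The means were 256 and 280 for H2-DMa and 198 and 221 for H2-DMb1. TPM were given no test. In whole-node RNA, fewer cells of a type and less RNA per cell cannot be told apart. The 4 gut positions are all set against the same 4 inguinal libraries, so a deviation of those libraries enters every such comparison. Position by position, 5 members were called in duodenal nodes (beside 25.3% of all genes), 3 in the jejunal (20.9%), 4 in the ileal (22.6%) and 3 in the ceco-colonic nodes (21%), each against inguinal.

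The classical chains moved little. H2-Aa ran between 2026 and 2954 CPM in the 16 gut-draining libraries (median 2598), against 2315, 2494, 2360.4 and 2286 CPM in the inguinal ones. H2-Ab1 ran between 1786 and 2785 CPM (median 2299) in gut-draining libraries, against 1965, 2311, 2127 and 2071 CPM in inguinal ones. The groups overlap for both, and the log2 differences of 0.12 ± 0.0661 (adjusted p = 0.200) and 0.14 ± 0.0736 (adjusted p = 0.181; ± after a log2 value is the model's standard error here and below, and after a level the SD) did not pass. In ileal against inguinal nodes alone the differences were 0.19 ± 0.0829 for H2-Aa (adjusted p = 0.122) and 0.25 ± 0.0922 for H2-Ab1 (0.0567), and without the 3 libraries with acinar transcripts both passed (0.0325 and 0.0221). H2-Eb1 measured 2557, 1828, 2154 and 2190.0 CPM in duodenal, 2308, 2129, 2261 and 2608 in the jejunal, 2411, 2203, 2453 and 2473 in the ileal and 2341, 2302, 2187 and 2203 in the ceco-colonic libraries, against 1820, 2106, 1985 and 1909.7 CPM in inguinal ones. Duodenal library 2 lies at the inguinal level and the other gut-draining libraries above all inguinal ones. The rise was 0.23 ± 0.0651 in log2 (adjusted p = 0.0129). It rests on the inguinal libraries: without inguinal library 1 the adjusted p was 0.0744 and without inguinal library 4 it was 0.0601. Position by position it passed in jejunal (0.25 ± 0.0811, adjusted p = 0.0317) and ileal nodes (0.29 ± 0.0811, adjusted p = 0.0132). The jejunal call was lost without jejunal library 1, 3 or 4 or inguinal library 1, 3 or 4 (adjusted p of at most 0.135), and the ileal one without ileal library 4 (0.0556) or inguinal library 1 (0.0580). The ceco-colonic difference (0.21 ± 0.0811, adjusted p = 0.0782) did not pass but did so under 4 of 28 alternatives, among them without the acinar libraries (0.0312). In TPM the duodenal mean of H2-Eb1 (3085 ± 353) lay below the inguinal one (3111 ± 213). On that scale jejunal (3271 to 3442) and inguinal libraries (2866 to 3384) overlapped.

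I-E needs an alpha chain, and H2-Ea, which carries a deletion in mice of the C57BL/6 background, was read at 0.0636 ± 0.0273 CPM in gut-draining and 0.0291 ± 0.0128 CPM in inguinal nodes (adjusted p = 0.0550). Most of the H2-Eb1 signal was assigned to models that are annotated as not making the chain. The model with a premature stop, H2-Eb1-205, took 50.6% of the gene's TPM and the 2 protein-coding models together took 16.7% to 21.8% per library. By position, H2-Eb1-205 held 51.0% ± 3.05 in duodenal, 50.03% ± 1.94 in the jejunal, 50.6% ± 1.46 in the ileal, 51.2% ± 2.50 in the ceco-colonic and 50.1% ± 1.48 in inguinal nodes. H2-Eb2, a further beta-chain locus beside H2-Eb1 and no member of the set, rose more than any of the I-A and I-E chains of the set: it stood at 91.8 ± 11.3 CPM in gut-draining and 56.7 ± 1.64 CPM in inguinal nodes, a log2 fold change of 0.69 ± 0.0602 (adjusted p = 2.63e-08). Unlike H2-DMb2 and Ciita it was higher in small intestinal than in ceco-colonic nodes (0.33 ± 0.0603, adjusted p = 5.88e-04).

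Cd74, at chr18:60803848-60812652 on the plus strand, ran between 4713 and 7314 CPM in the 16 gut-draining libraries (median 6409), against 5388, 6019, 5794 and 5432 CPM in the inguinal ones. Only duodenal libraries 2, 3 and 4 and jejunal library 2 fall within or below the inguinal range. Its log2 difference of 0.16 ± 0.0649 did not pass (adjusted p = 0.0732), but it passed without duodenal library 2 (adjusted p = 0.0219) and without the 3 libraries with acinar transcripts (adjusted p = 0.0399). Set against inguinal nodes one position at a time, only the ileal difference of Cd74 passed, at 0.23 ± 0.0812 (adjusted p = 0.0442), and it was lost under 16 of 28 alternatives, with adjusted p of up to 0.1498 (without ileal library 4). The ceco-colonic difference was of the same size (0.23 ± 0.0812, adjusted p = 0.0513) and passed under 8 of 28 alternatives, among them without the acinar libraries (0.0262), with DESeq2 (0.0437) and with limma-voom (0.0463). The gene is known to be spliced into a short and a long form. The shorter coding model, Cd74-201, took 68.9% of the gene's TPM, and the longer one, Cd74-202, held 30.2% ± 2.48 of the gene's TPM in duodenal, 30.9% ± 0.574 in the jejunal, 29.9% ± 0.548 in the ileal and 29.7% ± 0.748 in the ceco-colonic nodes, against 25.6% ± 0.618 in inguinal nodes. The lowest gut-draining share (26.7%) lies above the highest inguinal one (26.1%). The share is the estimator's split between models that overlap, and it was given no test.

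Ciita followed another order. It measured 282, 268, 311 and 305 CPM in ceco-colonic libraries, above every other library. The ileal libraries had 242, 227, 259.8 and 235 CPM, the jejunal 234, 217, 249 and 262 CPM and the duodenal 197, 219, 219 and 253 CPM, against 190.2, 216, 209 and 217 CPM in the inguinal ones. The ceco-colonic nodes thus stood apart from the rest in CPM, and the duodenal libraries overlap the inguinal ones. In TPM ceco-colonic library 2 (73.9) lay just below ileal library 3 (74.8). The gut mean rose by 0.25 ± 0.0622 in log2 (adjusted p = 0.00453). Position by position, ceco-colonic over inguinal was 0.49 ± 0.0774 (adjusted p = 9.34e-05), ileal 0.21 ± 0.0773 (0.0551), jejunal 0.21 ± 0.0773 (0.0618) and duodenal 0.09 ± 0.0773 (0.433). The ileal difference passed under 9 of 28 alternatives, among them without the acinar libraries (0.0404), with DESeq2 (0.0482) and with limma-voom (0.0492), and the jejunal one under 5. Among gut positions, duodenal was below ceco-colonic by −0.39 ± 0.0774 (adjusted p = 0.00127), a call that every alternative kept. The jejunal (−0.28 ± 0.0773, adjusted p = 0.0211) and ileal (−0.27 ± 0.0773, adjusted p = 0.0227) differences from ceco-colonic nodes were each lost under 4 alternatives. For the jejunal one these left out jejunal library 1 or 2 or ceco-colonic library 3 or 4, with adjusted p of at most 0.0906, and for the ileal one ileal library 2 or 4 or ceco-colonic library 3 or 4, with adjusted p of at most 0.0694.

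Ciita starts at alternative first exons, which in the mouse are known for different users: the upstream promoter pI in dendritic cells and macrophages, the middle promoter pIII in B cells and plasmacytoid dendritic cells, and the downstream promoter pIV in cells exposed to interferon gamma. The 8 transcript models of the gene fall into such groups by where they start on chromosome 16 (GRCm38): 3 between bases 10480059 and 10480164, 2 between 10488178 and 10488279 and 3 between 10489746 and 10489783. The coding part of the first exon of a model of each group, cut at 90 bases, is shown because these bases are what sets the groups apart, with the start codon in capitals.
Ciita-205, upstream, chr16:10480144-10480233: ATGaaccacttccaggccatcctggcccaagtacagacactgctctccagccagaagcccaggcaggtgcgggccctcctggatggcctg
Ciita-201, middle, chr16:10488373-10488424: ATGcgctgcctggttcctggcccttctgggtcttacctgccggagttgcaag
Ciita-203, downstream, chr16:10489822-10489864: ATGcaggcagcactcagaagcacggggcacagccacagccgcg
The middle group took most of the signal in every position, with 38.7 ± 5.15 TPM in duodenal, 39.4 ± 3.79 in the jejunal, 39.6 ± 2.52 in the ileal and 51.0 ± 2.35 in the ceco-colonic nodes, against 35.9 ± 1.76 TPM in inguinal nodes. The 4 ceco-colonic libraries (48.4 to 53.9 TPM) lie above all others. The downstream group was likewise highest in ceco-colonic nodes, at 8.57 ± 1.39 TPM, against 5.86 ± 0.333 in duodenal, 5.35 ± 0.554 in the jejunal, 5.83 ± 0.323 in the ileal and 5.999 ± 0.711 TPM in inguinal nodes. The upstream group did not separate ceco-colonic nodes: 15.2 ± 6.14 TPM in duodenal, 20.01 ± 2.32 in the jejunal, 22.8 ± 3.28 in the ileal and 23.1 ± 6.46 in the ceco-colonic nodes, against 20.5 ± 2.35 TPM in inguinal nodes. Of the models shown, Ciita-201 alone carries the long 3′ end, to base 10528418, where the other models shown end at 10526426, so reads from a long 3′ end may be assigned to the middle group whatever first exon the molecule had. Most of the downstream level belongs to the short models Ciita-208 and Ciita-204. These levels were given no test.

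**Figure D2:**
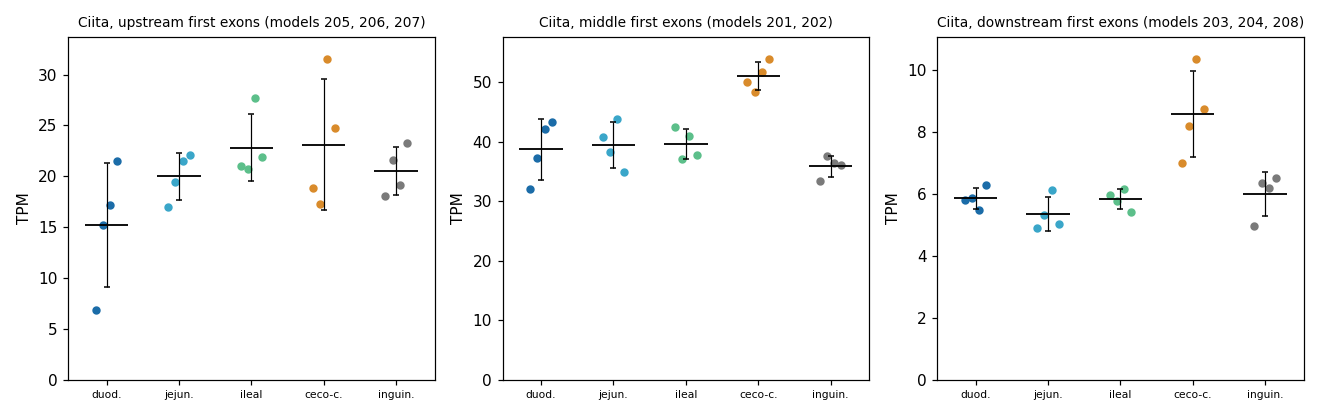
TPM of Ciita by group of first exons (upstream, middle, downstream) in each library, with mean and SD (n = 4) per position. The 4 ceco-colonic libraries lie highest in the middle group (48.4 to 53.9 TPM) and in the downstream group (7.01 to 10.4 TPM) but not in the upstream group.

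The DM genes had separate patterns. H2-DMa, the alpha chain, measured 165, 133, 162 and 149 CPM in duodenal, 188, 178, 180.3 and 180.3 in the jejunal, 212, 176, 205 and 190.7 in the ileal and 196, 182, 181 and 181 in the ceco-colonic libraries, against 178, 193, 179 and 173 CPM in inguinal ones. H2-DMb1 measured 158, 128, 153 and 143 CPM in duodenal, 170.2, 166, 167 and 164 in the jejunal, 193, 165, 184 and 174 in the ileal and 190.2, 177, 178 and 171 in the ceco-colonic libraries, against 168, 185, 170.3 and 169 CPM in inguinal ones. In CPM the 4 duodenal libraries lie below every other library for both genes. The remaining positions overlap, except that the jejunal libraries of H2-DMb1 all lie just below the ceco-colonic ones, a difference that did not pass (−0.10 ± 0.0636, adjusted p = 0.400). In TPM the duodenal libraries did not separate: duodenal library 3 lay above jejunal library 4 for H2-DMa (249 and 221) and H2-DMb1 (194 and 166). Over the gut positions as a whole neither differed from inguinal nodes (H2-DMa −0.02 ± 0.0533, adjusted p = 0.813, and H2-DMb1 −0.05 ± 0.0501, adjusted p = 0.525). Duodenal nodes alone were lower than inguinal ones, by −0.25 ± 0.0676 for H2-DMa (adjusted p = 0.00986) and −0.25 ± 0.0637 for H2-DMb1 (adjusted p = 0.00632). They were also lower than ileal nodes, by −0.36 ± 0.0677 for H2-DMa (adjusted p = 0.00184) and −0.30 ± 0.0637 for H2-DMb1 (adjusted p = 0.00458), and lower than ceco-colonic nodes, by −0.28 ± 0.0676 (adjusted p = 0.00652) and −0.30 ± 0.0637 (adjusted p = 0.00269).

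The lowest library for both genes, duodenal 2, is also one of those with acinar transcripts, and CPM are shares of a library. Without that library the H2-DMa difference from inguinal nodes gave an adjusted p of 0.0529, and without all 3 such libraries both genes kept adjusted p-values under 0.05 against inguinal, ileal and ceco-colonic nodes. With only the compared positions fitted, 3 of these 6 calls were lost: H2-DMa against inguinal (adjusted p = 0.0521) and ceco-colonic nodes (0.0531) and H2-DMb1 against ileal nodes (0.0567). The duodenal against jejunal difference of H2-DMa (−0.26 ± 0.0676, adjusted p = 0.0464) was lost under 20 of 28 alternatives, with adjusted p of up to 0.297 (without the 3 libraries with acinar transcripts).

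H2-DMb2, the other beta chain, was highest at the distal end. It measured 101.4, 96.0, 89.2 and 100.6 CPM in ceco-colonic libraries, the highest 4 of all 20. The duodenal libraries had 81.8, 72.3, 76.9 and 81.3 CPM, the jejunal 86.2, 55.5, 77.1 and 75.9 and the ileal 75.2, 70.2, 73.5 and 66.7 CPM, against 49.6, 56.4, 54.4 and 51.7 CPM in the inguinal ones. Jejunal library 2 is the only gut-draining library within the inguinal range. The gut mean was 1.498-fold that of inguinal nodes (log2 0.58 ± 0.0765, adjusted p = 5.99e-06), and ceco-colonic nodes alone were 1.83-fold (0.87 ± 0.0935, adjusted p = 8.12e-07). Each of the other gut positions also rose over inguinal, by 0.56 ± 0.0931 in duodenal (adjusted p = 1.38e-04), 0.48 ± 0.0930 in the jejunal (7.22e-04) and 0.43 ± 0.0930 in the ileal nodes (0.00172), and all 4 calls held under every alternative. No difference among duodenal, jejunal and ileal nodes passed. Jejunal and ileal nodes were below ceco-colonic ones by −0.39 ± 0.0929 (adjusted p = 0.00677) and −0.44 ± 0.0929 (0.00291). For duodenal nodes the difference was −0.31 ± 0.0928 (adjusted p = 0.0267), which was lost under 6 of 28 alternatives: without the 3 libraries with acinar transcripts (0.0931) and without duodenal library 2 (0.101) or 3 (0.0732) or ceco-colonic library 1 (0.0786), 2 (0.0564) or 4 (0.0795).

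The H2-DO chains also differed from each other. H2-Oa, the alpha chain, measured 59.96, 42.1, 47.4 and 43.7 CPM in duodenal, 53.1, 34.1, 45.5 and 46.6 in the jejunal, 48.1, 43.2, 46.1 and 36.4 in the ileal and 51.2, 48.9, 43.0 and 46.6 in the ceco-colonic libraries, against 30.3, 32.4, 30.6 and 28.0 CPM in inguinal ones. The 16 gut-draining libraries all lie above the 4 inguinal ones, and H2-Oa is the 1 member of which that is true. Over all genes 4.71% were higher in gut-draining nodes with no overlap. The rise was 1.52-fold (0.60 ± 0.0995 in log2, adjusted p = 9.63e-05). It was present at each position: 0.67 ± 0.121 in duodenal (adjusted p = 3.11e-04), 0.57 ± 0.121 in the jejunal (0.00165), 0.52 ± 0.121 in the ileal (0.00319) and 0.65 ± 0.121 in the ceco-colonic nodes (5.05e-04). Among gut positions no difference passed (adjusted p = 0.722 among the 4).

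H2-Ob, the beta chain, was graded along the small intestine. It measured 47.9, 43.9, 43.2 and 44.8 CPM in duodenal, 42.8, 31.6, 38.5 and 31.5 in the jejunal, 35.7, 30.2, 33.0 and 23.9 in the ileal and 39.0, 34.4, 33.0 and 36.8 in the ceco-colonic libraries, against 33.3, 29.9, 32.2 and 26.6 CPM in inguinal ones. In CPM the duodenal libraries lie above all others, narrowly so over jejunal library 1, and ileal and inguinal libraries overlap fully. In TPM duodenal library 1 (40.5) lay below jejunal libraries 1 (42.7) and 3 (41.1). Duodenal nodes were above ileal ones by 0.55 ± 0.112 (adjusted p = 0.00328) and above inguinal ones by 0.56 ± 0.112 (adjusted p = 8.33e-04), and both held under every alternative. The steps between neighbours did not pass, with 0.32 ± 0.111 for duodenal against jejunal (adjusted p = 0.134, and 0.0494 without jejunal library 1) and 0.23 ± 0.111 for jejunal against ileal (adjusted p = 0.920). Duodenal over ceco-colonic, 0.33 ± 0.111 (adjusted p = 0.0504), passed under 13 of 28 alternatives. The gut mean over inguinal, 0.26 ± 0.0897 (adjusted p = 0.0370), rested mainly on duodenal nodes. It was lost without the 3 libraries with acinar transcripts (adjusted p = 0.0631), with plain sums of transcript estimates (0.0942), and when any of 7 single libraries was left out. Those 7 were jejunal 3, ileal 3, ceco-colonic 1 and 4 and inguinal 2, 3 and 4, the last with the highest adjusted p of 0.182. As for H2-Eb1, only part of the H2-Ob signal was in protein-coding models, 28.4% to 35.7% per library, and the largest model, H2-Ob-207, retains an intron.

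**Figure D3:**
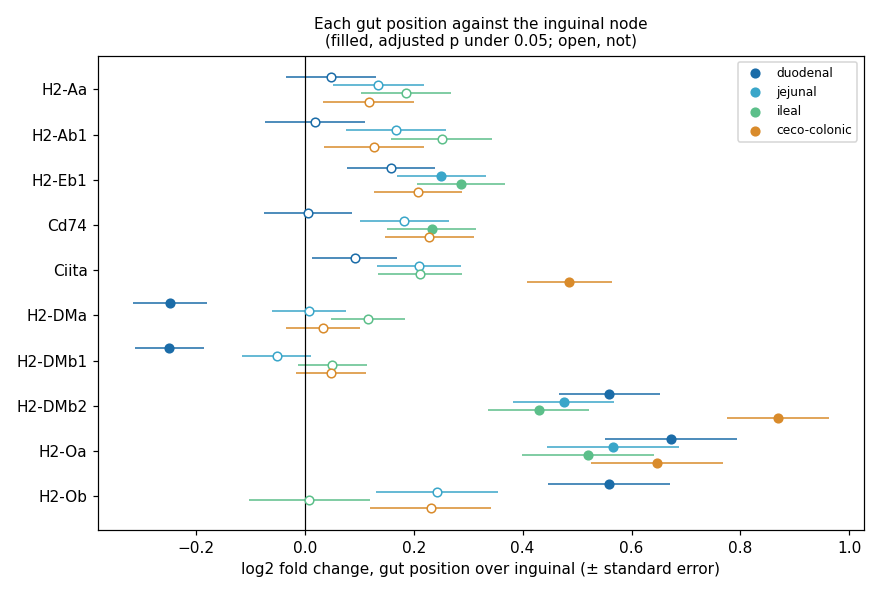
Log2 fold change of each gene in duodenal, jejunal, ileal and ceco-colonic over inguinal nodes (points, with standard error), filled where the adjusted p was under 0.05. H2-DMb2 and H2-Oa are filled at all 4 positions (0.43 to 0.87 and 0.52 to 0.67), H2-Ob in duodenal and Ciita in ceco-colonic nodes alone, and H2-DMa and H2-DMb1 lie below 0 in duodenal nodes.

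Read per length, the balance of partners shifted with position. H2-DMb1 exceeded H2-DMb2 by a TPM ratio of 2.05 ± 0.127 in duodenal, 2.55 ± 0.493 in the jejunal, 2.76 ± 0.125 in the ileal and 2.04 ± 0.135 in the ceco-colonic nodes, against 3.59 ± 0.116 in inguinal nodes. The highest gut-draining ratio, 3.28 in jejunal library 2, is below the lowest inguinal one, 3.45. H2-Oa over H2-DMa, the ratio of DO to DM alpha chain messages, was 0.323 ± 0.0337 in duodenal, 0.251 ± 0.0396 in the jejunal, 0.226 ± 0.0231 in the ileal and 0.261 ± 0.0137 in the ceco-colonic nodes, against 0.171 ± 0.00426 in inguinal nodes. Here too the groups do not overlap, with 0.194 as the lowest gut-draining and 0.174 as the highest inguinal ratio. H2-Ob over the sum of both DM beta chains was highest in duodenal nodes at 0.181 ± 0.0117 and lay between 0.0886 and 0.15001 in the other gut-draining libraries, against 0.107 to 0.136 in inguinal ones. The chain partners H2-Aa and H2-Ab1 kept a ratio of 1.17 ± 0.0730 in gut-draining and 1.19 ± 0.0449 in inguinal nodes, and Cd74 over H2-Ab1 was 2.52 ± 0.104 and 2.48 ± 0.0647 (n = 16 and 4). The ceco-colonic Cd74 over H2-Ab1 ratios (2.61 to 2.73) lie above those of every small intestinal library (2.34 to 2.57). These ratios are descriptions without a test.

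**Figure D4:**
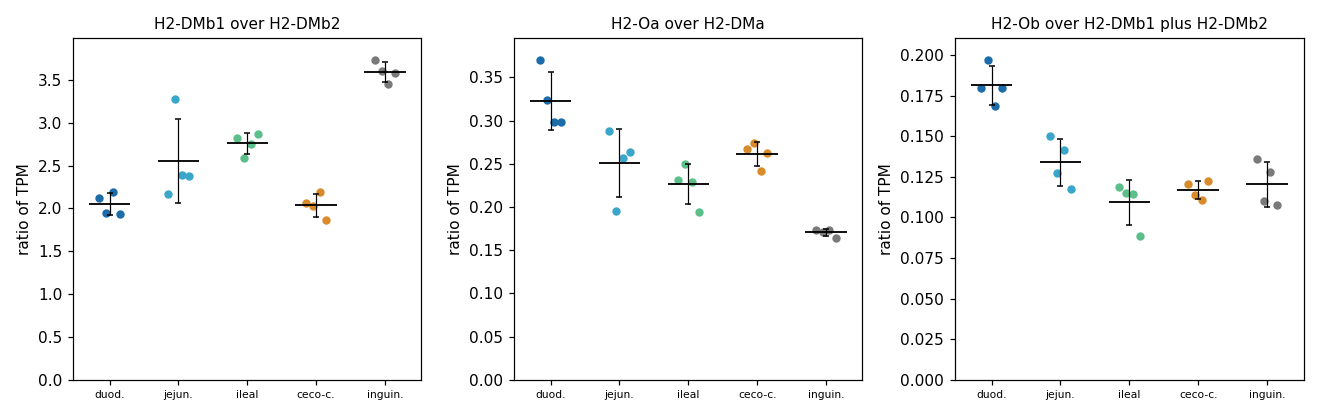
Ratios of TPM between partner genes in each library, with mean and SD (n = 4) per position. Inguinal libraries have the highest H2-DMb1 over H2-DMb2 ratios (3.45 to 3.73) and the lowest H2-Oa over H2-DMa ratios (0.165 to 0.174), and duodenal libraries the highest H2-Ob over DM beta ratios (0.168 to 0.197).

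Small intestinal nodes (the mean of duodenal, jejunal and ileal) were set against ceco-colonic nodes, since the series title names small intestinal nodes. Of the 10 genes 0 rose and 2 fell, H2-DMb2 by −0.38 ± 0.0741 (adjusted p = 0.001002) and Ciita by −0.32 ± 0.0620 (adjusted p = 0.00109), against 16.6% of all genes called, made up of 8.9% higher and 7.74% lower. The 12 small intestinal libraries ran between 55.5 and 86.2 CPM for H2-DMb2 and between 197 and 262 CPM for Ciita, all below the 4 ceco-colonic libraries. Such a lack of overlap on the lower side was found for 3.21% of all genes. Both calls held under every alternative. The other 8 members had log2 differences between −0.13 and 0.04, and their median with the called ones was −0.07 beside 0.01 over all genes.

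Asked whether any of the 4 gut positions differ, the F-test called 5 of the 10 genes beside 21.3% of all genes: H2-DMa (adjusted p = 0.00299), Ciita (0.00446), H2-DMb1 (0.00465), H2-DMb2 (0.00487) and H2-Ob (0.00796). All 5 held under every alternative. H2-Aa, H2-Ab1, H2-Eb1, H2-Oa and Cd74 did not pass, but without duodenal library 1 H2-Ab1 (adjusted p = 0.0360) and Cd74 (0.0268) did. Over all 5 positions 7 of the 10 passed, beside 35.7% of all genes, adding H2-Oa (0.00116) and Cd74 (0.0391) to these 5. Cd74 lost that call under 17 of 27 alternatives. H2-Eb1 (0.0558) gained it under 6 of 27, among them without the acinar libraries (0.0203), and without duodenal library 1 H2-Aa (0.0314) and H2-Ab1 (0.0170) passed as well. Over the 10 pairs of positions, 27 of 100 member-by-pair tests passed beside 14.9% of all gene-by-pair tests, and 12 of those 27 were among the 60 tests between gut positions. By pair of gut positions, 1 member was called between duodenal and jejunal nodes (2.83% of all genes), 3 between duodenal and ileal (14.6%), 4 between duodenal and ceco-colonic (16.4%), 2 between jejunal and ceco-colonic (12.2%) and 2 between ileal and ceco-colonic nodes (12.8%). Between jejunal and ileal nodes 0 were called by edgeR, beside 0.068% of all genes.

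By level, ileal nodes ranked first for H2-Aa, H2-Ab1, H2-Eb1, H2-DMa, H2-DMb1 and Cd74, duodenal nodes for H2-Oa and H2-Ob, and ceco-colonic nodes for H2-DMb2 and Ciita. Neighbours in those orders seldom differed beyond their spread. The steps that passed were inguinal over duodenal for H2-DMa, ceco-colonic over duodenal and ileal over inguinal for H2-DMb2, ileal over inguinal for H2-Oa and ceco-colonic over ileal for Ciita. The share of a gene's log2 CPM variance that lay between positions was 83.8% for H2-DMb2, 74.7% for Ciita and 70.1% for H2-DMa. It was 69.6% for H2-DMb1, 69.3% for H2-Oa, 66.0% for H2-Ob and 51.4% for Cd74. The lowest shares were 48.9% for H2-Eb1, 39.1% for H2-Ab1 and 29.2% for H2-Aa.

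Across the 20 libraries the genes fell into groups by how they varied. H2-Ab1, H2-Eb1 and Cd74 ran together (Pearson r of log2 CPM 0.90 to 0.94), and they did so within positions too, as deviations from position means (0.97 for each pair). H2-Aa had an r of 0.84 with H2-Ab1, 0.86 with H2-Eb1 and 0.81 with Cd74, and of 0.77, 0.83 and 0.77 within positions. H2-DMa and H2-DMb1 formed a pair (0.97, and 0.98 within positions), and H2-DMb2 paired with H2-Oa instead (0.87 and 0.82), while its r with H2-DMb1 was 0.05, and 0.37 within positions. H2-Oa and H2-Ob stood at 0.67 and 0.72. Within positions these groups were less separate: H2-Oa had an r of 0.62 with H2-DMa and 0.58 with H2-DMb1, and H2-Aa one of 0.79 and 0.81 with the DM pair and 0.71 with H2-Oa. Ciita tracked H2-DMb2 over all libraries (0.75) but less within positions (0.33), and its r with H2-Aa, H2-Ab1, H2-Eb1 and Cd74 within positions lay between −0.30 and 0.17. These values describe 20 points that share library, depth and the shares of whole-node cell types.

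**Figure D5:**
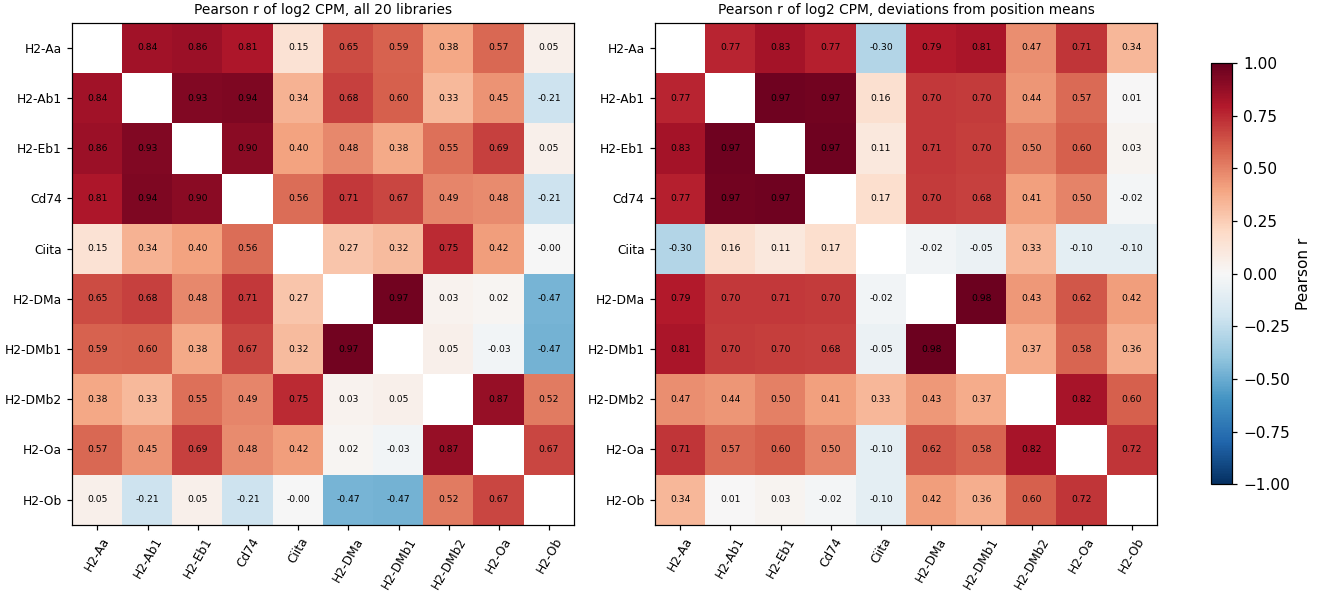
Pearson r of log2 CPM between the 10 genes over 20 libraries (left) and over deviations from the 5 position means (right). H2-DMa with H2-DMb1 (0.97 and 0.98) and H2-DMb2 with H2-Oa (0.87 and 0.82) are the strongest pairs outside the H2-Ab1, H2-Eb1 and Cd74 group on the left. Within positions the groups are less separate, with H2-Oa at 0.62 with H2-DMa and H2-Aa at 0.79 with H2-DMa and 0.71 with H2-Oa, and Ciita has no r above 0.33 within positions.

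Outside the set, the genes whose pattern was most like a member's were sought among 12220 genes with a mean of at least 5 CPM, again as a description over the same 20 libraries. H2-DMb2 was nearest to Napsa (r = 0.95), an aspartic protease, followed by Grem1 and Tacr1, and within positions to Lyz2 (0.93), a lysozyme of macrophages and other myeloid cells. H2-Oa was nearest to Ltb (0.95), which encodes lymphotoxin beta, and then to Odc1 and Bex3, and within positions to Trbc2 (0.94). H2-Ob was nearest to Lrrk2 (0.93), Snx22 and Prkcb and within positions to Xcr1 (0.92), the chemokine receptor of type 1 dendritic cells. Ciita was nearest to Gpr35 (0.94), Tmem132a and Plcg2 and within positions to Il16 (0.92), and Cd74 to Trpc4ap (0.93), Sphk2 and Vav1 and within positions to Cnppd1 (0.94). H2-DMa and H2-DMb1 shared Higd2a (0.94 and 0.90) and Prrg2 (0.91 for both), followed by Capns1 for H2-DMa and Tnfaip8l2 for H2-DMb1. Of the classical chains H2-Aa was nearest to Mrpl10 (0.92), of the mitochondrial ribosome, with Nudt8 and Sdhd, and within positions to Dctn5 (0.94). H2-Ab1 was nearest to Atp5f1d (0.92), of the ATP synthase, with Fkbp8 and Comtd1, and within positions to Tmem51 (0.96). H2-Eb1 was nearest to Atox1 (0.91), a copper chaperone, with Atp6v1f and Taf10, and within positions to Cnppd1 (0.96).

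Xcr1 stood at 56.7 ± 2.78 CPM in duodenal, 42.2 ± 6.26 in the jejunal, 29.6 ± 5.52 in the ileal and 40.8 ± 4.44 in the ceco-colonic nodes, against 49.6 ± 4.23 CPM in inguinal nodes. Its order among gut positions is that of H2-Ob, while in inguinal nodes it was high where H2-Ob was low. The whole type 1 dendritic list (Xcr1, Clec9a, Itgae, Tlr3 and Cadm1) summed to 286 to 345 CPM in duodenal, 271 to 322 in the jejunal, 252 to 294 in the ileal and 248 to 287 in the ceco-colonic libraries, against 236 to 256 CPM in inguinal ones. In gut-draining against inguinal nodes Clec9a was higher and Xcr1 lower. The pan-dendritic list (Flt3, Itgax, Zbtb46, Ccr7 and Batf3) summed to 1209 to 1405 CPM in duodenal, 1317 to 1584 in the jejunal, 1414 to 1564 in the ileal and 1631 to 1775 in the ceco-colonic libraries, against 1088 to 1194 CPM in inguinal ones. It was thus highest in ceco-colonic nodes, as Ciita and H2-DMb2 were, and all gut-draining libraries lay above the inguinal ones. Of its 5 genes Ccr7 and Batf3 rose in gut-draining nodes and 0 fell, beside 13.4% of all genes higher and 12.9% lower. In small intestinal against ceco-colonic nodes 4 of the 5 fell, beside 7.74% of all genes lower and 8.9% higher, Flt3 by −0.39 ± 0.0481 (adjusted p = 8.21e-06) among them. The part of these cell types in the class II differences was not tested.

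Markers of other cell types that can carry class II differed in direction from list to list. The counts below for gut-draining against inguinal nodes are to be read beside 13.4% of all genes higher and 12.9% lower. Type 2 dendritic markers (Cd209a, Sirpa, Clec10a, Mgl2 and Clec4a4) summed to 410 to 613 CPM in gut-draining and 623 to 712 CPM in inguinal libraries, with 1 of 5 higher and 3 lower in gut-draining nodes. Clec10a averaged 34.4 ± 11.8 CPM in gut-draining and 110.3 ± 10.1 CPM in inguinal nodes. The 5 plasmacytoid dendritic markers (Siglech, Ccr9, Klk1, Pacsin1 and Cox6a2) summed to 190 to 630 CPM in duodenal and 135 to 178 CPM in ceco-colonic libraries. Jejunal libraries had 166 to 211, ileal ones 169 to 195 and inguinal ones 181 to 233 CPM. Of these 5 genes 1 was higher and 2 lower in gut-draining nodes. Some duodenal libraries also held transcripts of pancreatic acinar cells. Their part in the high duodenal sums was not tested. The 8 macrophage markers summed to 1983 to 2834 CPM in duodenal and 2117 to 2520 CPM in ceco-colonic libraries. Jejunal libraries had 3433 to 4090, ileal ones 3357 to 4273 and inguinal ones 2640 to 3051 CPM. In gut-draining against inguinal nodes 2 of the 8 were higher and 2 lower. In small intestinal against ceco-colonic nodes 4 were higher and 1 lower, beside 8.9% and 7.74% of all genes. The 3 Langerhans cell markers (Cd207, Epcam and Cd1d1) summed to 74.1 to 162 CPM in gut-draining and 45.1 to 50.7 CPM in inguinal libraries, with 1 higher and 2 lower. Most of that sum is Cd1d1 (107 ± 25.5 CPM in gut-draining and 30.1 ± 1.82 CPM in inguinal nodes), whereas Cd207, the defining gene, was at 0.440 ± 0.333 CPM in gut-draining and 9.43 ± 1.68 CPM in inguinal nodes. The 3 monocyte markers (Ly6c2, Ccr2 and Fn1) summed to 799 to 1307 CPM in gut-draining and 489 to 673 CPM in inguinal libraries, again with 1 higher (Fn1) and 2 lower. The 6 markers of lymph node reticular cells summed to 3994 to 4782 CPM in ceco-colonic libraries, above every other library, as for Ciita and H2-DMb2, with Ccl21a as the largest part. Of these 6 genes 2 were higher and 2 lower in gut-draining nodes. In small intestinal against ceco-colonic nodes 3 of the 6 were lower and 0 higher, beside 7.74% and 8.9% of all genes. Ptprc, which marks all leukocytes, was lower in gut-draining nodes (594 ± 59.04 CPM) than in inguinal ones (696 ± 47.4 CPM), by −0.23 ± 0.0523 in log2 (adjusted p = 0.00196), the direction opposite to the class II rises. The 7 B cell markers counted summed to 13.4 to 19.5 CPM in gut-draining and 16.1 to 17.2 CPM in inguinal libraries, with 2 higher and 2 lower. The 5 T cell markers summed to 15.6 to 35.3 and 17.3 to 20.5 CPM, with 1 higher and 1 lower. None of these lists was tested as a source of the class II signal.

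Other genes of the presentation pathway were counted list by list, to be read against the 26.3% of all genes called in gut-draining against inguinal nodes and the 16.6% called in small intestinal against ceco-colonic nodes. Of 7 class II promoter factors (Rfx5, Rfxap, Rfxank, Nfya, Nfyb, Nfyc and Creb1), 0 were called in gut-draining against inguinal nodes, the 2 most abundant being Nfya (125.9 ± 19.1 and 128 ± 5.22 CPM) and Creb1 (77.8 ± 9.23 and 81.9 ± 6.85 CPM). In small intestinal against ceco-colonic nodes Rfx5 (−0.22 ± 0.0524, adjusted p = 0.00543) and Nfya (−0.36 ± 0.0711, adjusted p = 0.00122) were lower, the direction of Ciita there. Of 11 genes upstream of Ciita, 2 rose and 2 fell in gut-draining nodes, with 13.4% of all genes higher and 12.9% lower. Jak2, the kinase of the interferon gamma receptor, averaged 487 ± 44.5 CPM in gut-draining and 249.9 ± 2.15 CPM in inguinal nodes (0.96 ± 0.0681, adjusted p = 1.17e-09). Irf1 rose by 0.42 ± 0.0908 (adjusted p = 0.00153). Ifng itself was lower, at 2.52 ± 0.779 CPM in gut-draining and 3.56 ± 0.323 CPM in inguinal nodes (−0.52 ± 0.166, adjusted p = 0.0231), and so was Irf4 (−0.65 ± 0.0718, adjusted p = 6.73e-07). In small intestinal against ceco-colonic nodes Jak1 was higher (0.23 ± 0.0495, adjusted p = 0.00292) and Irf4 lower (−0.81 ± 0.0742, adjusted p = 1.63e-07).

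Endosomal processing genes rose in part. Of 8, 4 were higher and 0 lower in gut-draining nodes (13.4% and 12.9% of all genes): the protease Ctsd (0.37 ± 0.0665, adjusted p = 2.38e-04), the asparaginyl protease Lgmn (0.37 ± 0.0603, 7.42e-05), the reductase Ifi30 (0.37 ± 0.0596, 6.99e-05) and Sppl2a, which cleaves the last invariant chain fragment (0.19 ± 0.0473, 0.00521). Ctss, which trims the invariant chain, was level at 879 ± 84.9 CPM in gut-draining and 883 ± 49.9 CPM in inguinal nodes. In small intestinal against ceco-colonic nodes Ctsl (0.63 ± 0.0622, adjusted p = 4.73e-07) and Ctsd (0.22 ± 0.0678, 0.0334) were higher and Ifi30 lower (−0.22 ± 0.0592, 0.0145), 3 of the 8 beside 16.6% of all genes. Of the turnover genes Cd83, which protects surface class II from ubiquitination, stood at 262 ± 34.1 CPM in gut-draining and 174 ± 7.98 CPM in inguinal nodes (0.58 ± 0.0534, adjusted p = 5.32e-08). It was also higher in small intestinal than in ceco-colonic nodes (0.40 ± 0.0541, adjusted p = 2.25e-05). In gut-draining nodes Marchf8, a ligase that removes class II from the surface, rose by 0.16 ± 0.0432 (adjusted p = 0.00681). Marchf1, the third gene tested, did not pass (−0.08 ± 0.0599, adjusted p = 0.345).

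Costimulation genes moved both ways. Of 6 genes in gut-draining nodes the inhibitory ligands Cd274 (0.64 ± 0.0596, adjusted p = 6.20e-08) and Pdcd1lg2 (1.48 ± 0.0882, adjusted p = 9.66e-11) rose, and Cd80 (−0.26 ± 0.0556, 0.00112) and Cd86 (−0.18 ± 0.0629, 0.0393) fell. In small intestinal against ceco-colonic nodes 5 of the 6 fell and 0 rose (7.74% and 8.9% of all genes), Cd80 by −0.54 ± 0.0567 (adjusted p = 9.85e-07) and Icosl by −0.46 ± 0.0742 (1.64e-04), with Pdcd1lg2 (−0.43 ± 0.0796, 5.69e-04), Cd86 (−0.22 ± 0.0649, 0.0222) and Cd274 (−0.19 ± 0.0582, 0.0330). Of 10 class I presentation genes 6 rose in gut-draining nodes and 0 fell (13.4% and 12.9% of all genes), all 6 in peptide generation, transport or loading: Tapbp (0.39 ± 0.0668, adjusted p = 1.28e-04), Tap2 (0.31 ± 0.0641, 8.31e-04), Psmb9 (0.36 ± 0.0814, 0.00217), Tap1 (0.26 ± 0.0628, 0.00323), Psmb10 (0.32 ± 0.0909, 0.0107) and Psmb8 (0.20 ± 0.0724, 0.0455). The class I chain genes H2-K1, H2-D1 and B2m did not pass, with H2-K1 at 4126 ± 494 and 4168 ± 259 CPM in gut-draining and inguinal nodes. In small intestinal against ceco-colonic nodes Tap1 alone of the 10 was called, lower by −0.32 ± 0.0625 (adjusted p = 0.00109). Over these lists the median log2 fold change in gut-draining nodes was 0.13 for processing, 0.05 for the genes upstream of Ciita, 0.23 for class I and −0.04 for the promoter factors, beside 0.00 over all genes.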

How the data were processed

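Per the file headers, the deposited gene table holds estimated (expected) counts per gene, and the deposited transcript tables hold estimated counts and TPM. The submitters' processing notes name kallisto, limma, edgeR, GRCm39 and mm10, without roles or versions. Of the gene table's values, 99.4% fell within 0.001 (log2) of length-scaled TPM rebuilt from the transcript files (12542 genes compared, each with 500 or more estimated counts in all libraries). The values tested are therefore scaled estimates, not read counts. For the 10 genes the largest log2 difference from plain sums was 0.0924.

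Estimates were rounded, filtered with filterByExpr (groups: positions; minimum count 10; minimum total 15; 29411 genes kept), TMM-normalized and fitted in edgeR 4.0.16 (R 4.3.3) with quasi-likelihood models, all 20 libraries in 1 fit with 1 mean per position. The threshold was an adjusted p of 0.05 (Benjamini-Hochberg, over all genes). CPM are TMM-scaled, and log2 CPM for correlations used a prior count of 2. Depth was 148.2 to 304.6 M estimated counts. The procedure was tested on simulated data. The members, the lists and the rule for named genes (all members, the called genes of a list or else its 2 most abundant, and the nearest genes by r) were chosen with earlier results of these data known, and the motifs after the sequences were seen. Some genes of these lists are not reported here and are left out of the lists' counts. Alternatives were DESeq2-type size factors, an unfiltered fit, DESeq2 1.42.0, limma-voom (limma 3.58.1), the replicate number as a block, plain transcript sums, omitting the 3 libraries with acinar transcripts or any single library, and fits of the compared positions alone.

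Promoters are from RefSeq (GRCm38.p6), transcripts from GENCODE M21 (GRCm38). All 54 transcripts of the members occur in GENCODE M21, with the same length. Coordinates are from that build, which need not be the one used for counting.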

Additional observations from a re-analysis of the deposited data

Results flagged for a closer look

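Of 50 groups of 4 libraries (10 genes at 5 positions), 3 had a library whose gap to the nearest other exceeded Dixon's 95% critical value, and chance alone flags about 1 in 20 groups. H2-Ab1 stood at 2274 CPM in ileal library 2, below the other ileal libraries (2584 to 2630 CPM). H2-DMa stood at 196 CPM (195.7) in ceco-colonic library 1, above the other ceco-colonic ones (181.0 to 182 CPM). H2-DMb1 stood at 185 CPM (184.8) in inguinal library 2, above the other inguinal ones (168 to 170.3 CPM).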

How the results depend on the processing

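The count of members called was within 1.5 times its value under every alternative run in small intestinal against ceco-colonic nodes (2 to 3 called), among the 4 gut positions (5 to 7), among all 5 (6 to 10) and over the pairs of positions (22 to 37). In gut-draining against inguinal nodes it was 5, 4 to 5 under the 7 alternatives that keep most libraries, and 3 to 6 when a library was left out, the 3 without inguinal library 4. Leaving out a library gave 2 to 3 calls in small intestinal against ceco-colonic nodes, 5 to 7 among gut positions, 6 to 10 among all 5 and 22 to 37 over the pairs. Over all genes, leaving out a library gave 6314 to 8152 calls in gut-draining against inguinal, 3576 to 5445 in small intestinal against ceco-colonic, 4919 to 6812 among gut and 9366 to 11039 among all positions. A fit of the compared positions alone equals the one reported where all 5 positions are compared and was not run there.

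Sign changes were found only for differences near 0. In small intestinal against ceco-colonic nodes H2-Aa turned to −0.0011 with size factors of the DESeq2 type and with DESeq2, to −0.0094 without the 3 acinar libraries and to −0.0045 with the compared positions alone, and ran between −0.0282 and 0.0614 with a library left out. There H2-Ob turned to −0.0027 without the acinar libraries, and with a library left out H2-Ab1 ran between −0.0141 and 0.0495 and H2-Eb1 between −0.0040 and 0.0538. H2-DMa in gut-draining against inguinal nodes ran between −0.0457 and 0.0067 with a library left out. The causes were not tested.

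The main tests did not treat the replicate numbers of the labels as pairs. By the rule used, correlated deviations over 0.1, 13 of 40 same-numbered pairs passed (range −0.0863 to 0.357). Yet 17 of 20 libraries correlated best, among the 4 numbers, with libraries of their own number. What same-numbered libraries share is not stated in the labels and was not tested. With the replicate block 5 members were called in gut-draining against inguinal, 2 in small intestinal against ceco-colonic, 5 among gut and 7 among all positions, and 35 member-by-pair tests against 27. No call was lost, and the 8 gained were H2-Ob in duodenal against jejunal (adjusted p = 0.0305) and ceco-colonic (0.00898) and in jejunal (0.0447) and ceco-colonic (0.0443) against inguinal nodes, Ciita in jejunal (0.0232) and ileal (0.0183) against inguinal, and Cd74 in duodenal against ileal (0.0496) and ceco-colonic against inguinal nodes (0.0450). Standard errors of log2 differences were 0.05 to 0.12, and what sets them was not tested.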
